A study of Cinachyrella cavernosa with 3 samples.

Results

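The set described here is 74 coding sequences of the marine demosponge Cinachyrella cf. cavernosa. Relative to tissue before the wound, their transcripts were lowered in regenerating tissue and still lowered once regeneration had ended. The 74 were chosen by read counts in these same 3 libraries. A coding sequence had to be listed in all 3 tables and to reach 20 reads in at least 1 of them. Its scaled read count, both during and after regeneration, had to be 50% or less of that before the wound. A scaled read count is the number of reads divided by a median-of-ratios size factor, which sets the typical coding sequence equal in the 3 libraries. Of 3229 coding sequences listed in any table, 887 were listed in all 3, 869 of these had at least 20 reads in one, and 74 met the rule.

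The study compared 3 stages, with 1 library each: sponge tissue before a wound was inflicted, which is the control (unwounded tissue below), tissue during regeneration (regenerating tissue) and tissue after regeneration (regenerated tissue). The wounds were modelled on fish bites and amounted to about 10% of the sponge's volume, and the animals had been acclimatised in aquaria with natural sea water. The hours or days of sampling, the number of sponges in a library and whether the same sponges were sampled again are not stated in the labels. Reads in the tables totalled 773142 for unwounded, 1062098 for regenerating and 965464 for regenerated tissue. With 1 library per stage there is no spread between samples and no test between stages, and every difference below is one between these libraries. Intervals are 95% exact intervals on read pairs and cover counting error only.

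Sponges have no organs. Their body holds a system of canals and of chambers with flagellated feeding cells, the choanocytes. Mobile cells such as archaeocytes crawl through the matrix between canals and chambers. In other demosponges, wounds are closed by cells that move in from nearby tissue and change type, and the canal system is rebuilt afterwards. The tables used here give identifiers without gene names, so no role can be given to any of the 74, no pathway list could be matched and the tissue could not be checked against cell markers. In whole tissue, fewer cells of a type and less RNA per cell cannot be told apart.

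As a set, the 74 lay further below the unwounded level during regeneration than after it. The median of the 74 was 21.3% of the before-wound level during regeneration and 30.5% after it, which is -2.23 and -1.71 as log2 ratios. The medians over all 869 coding sequences were -0.02 and -0.06. These values follow from the rule and are a description. Both ratios share the before-wound library. Read counts of the 74 ranged from 28 to 6132 in unwounded tissue (median 232), from 8 to 1378 in regenerating tissue (median 51) and from 10 to 3592 in regenerated tissue (median 93).

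**Figure D1:**
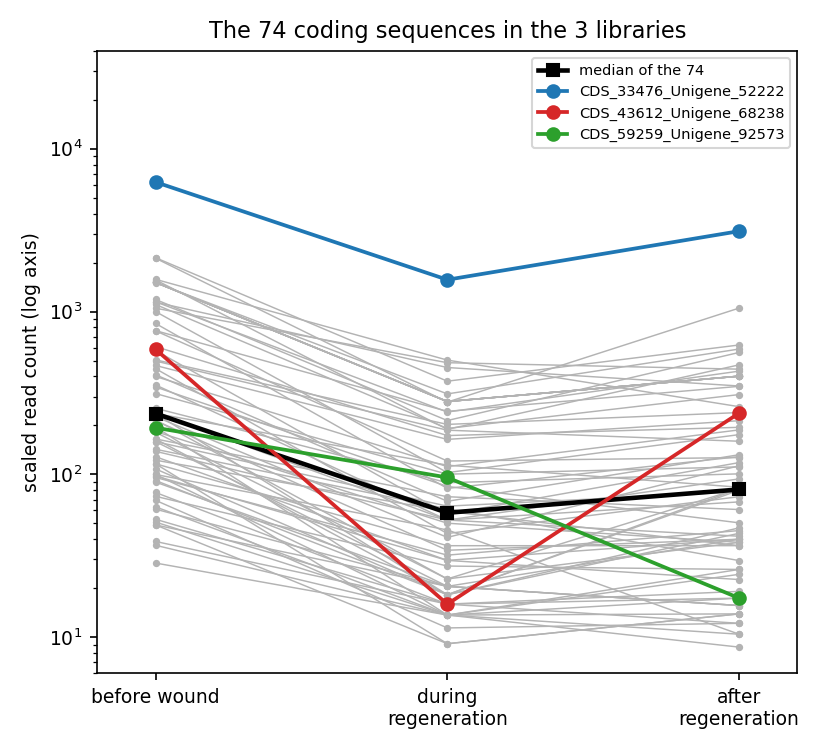
Scaled read counts (log axis) of the 74 coding sequences in the 3 libraries, 1 grey line each, with the median in black and 3 coding sequences in colour. The median was 236 in unwounded, 58.0 in regenerating and 80.7 in regenerated tissue, and the coloured lines show the most abundant sequence, the one with the highest ratio of after to during and the one with the lowest.

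The rule can be taken apart into its 2 sides. During regeneration 211 of the 869 (24.3%) were at 50% or less of the before-wound level, and after regeneration 129 (14.8%) were. The 74 in both are 8.52% of the 869. They make up 35.1% of those lowered during regeneration and 57.4% of those lowered after it. Another 137 were lowered during regeneration and lay above 50% afterwards, and 55 were lowered only after regeneration. Of the 137, 30 shared their length and all counts with another sequence, as did 7 of the 74. Each was counted separately in these shares. The 2 lists share the before-wound library, so this overlap is no measure of how stable the lowering was.

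**Figure D2:**
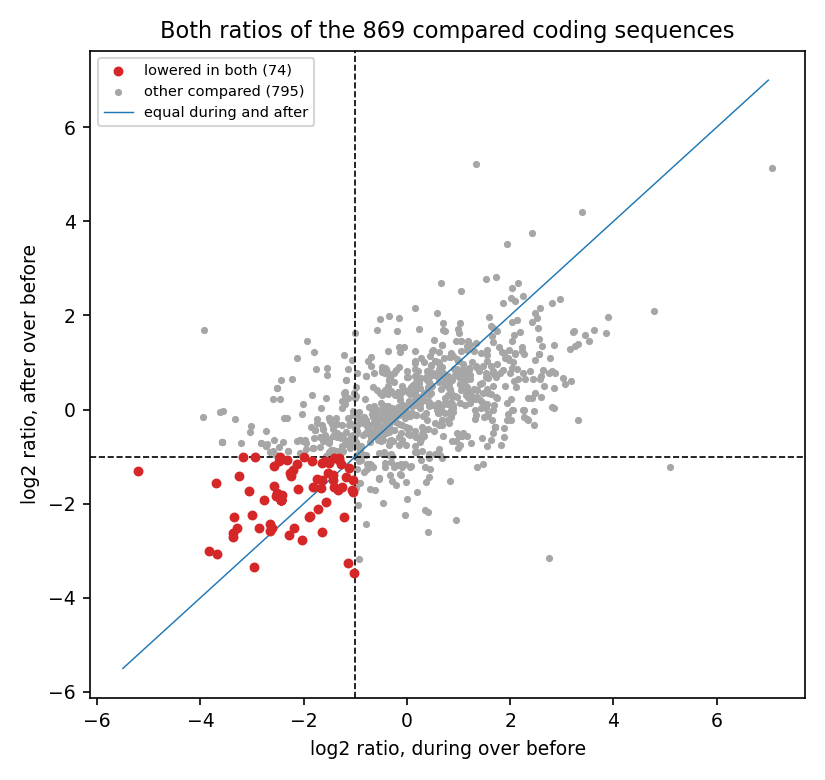
Log2 ratio of during over before (x axis) against after over before (y axis) for the 869 compared coding sequences, with the 74 in red, the other 795 in grey, the 50% limits dashed and equal levels during and after as a blue line. The 74 fill the lower left corner by construction, and 53 of them lie above the blue line.

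Many of the 74 lay far below the limit. During regeneration 42 of the 74 were at 25% or less of the before-wound level, against 9.78% of the 869. The 42 include the 7 sequences of identical counts described below, each at 18.5%. After regeneration 22 were, against 3.57% of the 869. At 25% or less in both libraries were 15 of the 74, which are all the 15 (1.73%) found among the 869. The choice of the 74 raises each of these counts, so nothing is read from the contrast.

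At the limit itself, the last coding sequence inside had 6132 reads in unwounded, 1378 in regenerating and 3592 in regenerated tissue, and stood at 49.9% after regeneration. The next one inside, of 687 bases, had 222, 36 and 130 reads and also stood at 49.9%. The nearest outside, of 387 bases, had 758, 230 and 448 reads and stood at 50.4% after regeneration. The next outside, of 312 bases, had 150, 68 and 88 reads and stood at 50.7% during and 50.02% after regeneration. These pairs differ by far less than counting error. The upper bound of the interval lay under 50% during regeneration for 50 of the 74, after it for 44, and in both for 37. Each count includes the 7 sequences of identical counts described below, with upper bounds of 22.5% during and 30.8% after regeneration. For 2 of the 74 the interval reached the before-wound level during regeneration, and for 1 it did so after regeneration.

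The most abundant of the 74 was CDS_33476_Unigene_52222, of 414 bases. Its 6132 reads in unwounded tissue compare with 1378 in regenerating and 3592 in regenerated tissue. As FPKM, the authors' fragment count scaled by length and library size, the values are 37961, 5896 and 17882. By FPKM it ranked 15, 43 and 24 among the 869. Regenerating tissue had 25.1% of its unwounded level (95% interval 23.1 to 27.3) and regenerated tissue 49.9% (47.1 to 53.0), so it entered the set by a margin smaller than its counting error. Next came CDS_21594_Unigene_33566, of 330 bases, with 2104, 328 and 718 reads before, during and after. Regenerating tissue had 17.4% of its unwounded level (14.7 to 20.6) and regenerated tissue 29.1% (25.7 to 32.8), and its rank by FPKM was 24, 113 and 72 in the 3 libraries. Counting error is small at these depths, and both later levels of this second sequence lie clear of the 50% limit.

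The lowest level during regeneration belonged to CDS_43612_Unigene_68238, of 378 bases, with 576 reads in unwounded, 14 in regenerating and 274 in regenerated tissue. During regeneration it was 36.8-fold lower than before, at 2.72% (1.08 to 5.67), and after regeneration it stood at 40.6% (32.8 to 49.9). The second lowest was CDS_61960_Unigene_96824, of 363 bases, with 192, 12 and 28 reads. Against unwounded tissue it was 14.3-fold lower in regenerating and 8.04-fold lower in regenerated tissue. In regenerated tissue the first sequence was thus far above its lowest level, while the second was within counting error of it.

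After regeneration the lowest level was that of CDS_59259_Unigene_92573, of 420 bases, with 190 reads in unwounded, 84 in regenerating and 20 in regenerated tissue. The level was 49.4% in regenerating (33.5 to 71.8) and 8.97% in regenerated tissue (4.17 to 17.2). The deposited FPKM of this sequence held 33.3% of its read pairs in each library, the one such case among the 74. Whether its reads were divided with other sequences was not tested. CDS_45134_Unigene_70603, of 303 bases, had 156, 18 and 18 reads, at 12.9% in regenerating (5.69 to 25.8) and 9.84% in regenerated tissue (4.34 to 19.7). CDS_59259_Unigene_92573 was far below the limit in regenerated tissue alone, whereas CDS_45134_Unigene_70603 was low in both to about the same extent.

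Over both ratios together, the lowest mean was that of CDS_61960_Unigene_96824, at -3.42 on the log2 scale. CDS_31887_Unigene_49708, of 345 bases, followed at -3.37, with 114 reads in unwounded, 8 in regenerating and 16 in regenerated tissue. These are 7.85% (2.07 to 21.2) in regenerating and 12.0% (4.93 to 25.2) in regenerated tissue. Its intervals are wide because few reads remained. Of the 74, 21 had under 20 reads during regeneration, 11 had under 20 after it and 0 had under 20 before the wound.

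The ratio of after to during regeneration has no limit of its own in the rule, but the rule restricts it. It leaves out the 137 sequences that were lowered during regeneration and above 50% afterwards, and the 55 lowered after it alone. The counts that follow are therefore a description, and nothing is read from their contrast with the 869. Of the 74, 53 were higher after regeneration than during it and 21 were lower, against 53.5% higher among the 869. The median log2 ratio of after over during was 0.47 in the 74 and 0.08 in the 869. The difference of 0.39 depends on the scaling through the choice of members: it was 0.43 with TMM factors (edgeR's trimmed mean of M values) and 0.07 with library totals, where the rule took 109 sequences. Of the 74, 50 lay above the median of the 869. No test of this difference was made, since each stage has 1 library. With sequences of identical counts taken once, 47 of 68 were higher after regeneration. Their median log2 ratio was then 0.36, and the difference from all compared sequences was 0.29.

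In regenerated tissue, 60 of the 74 were less than 2-fold from their level in regenerating tissue, against 63.5% of the 869. Of the rest, 11 were at least 2-fold higher, against 17.3% of the 869, and 3 were at least 2-fold lower, against 19.2% of the 869. Under the rule, a sequence could be at least 2-fold higher only if it stood at 25% or less during regeneration, as 42 did, and at least 2-fold lower only if it stood at 25% or less after it, as 22 did. As shares of the 74 these are 14.9% and 4.05%. The first count depends on the scaling: with library totals the rule took 109 sequences, of which 43 were at least 2-fold higher after than during regeneration. The interval lay wholly above equal levels for 29 of the 74 (39.2%) and wholly below for 6 (8.11%), against 30.0% and 30.0% of the 869. It included equal levels for the other 39. The 29 include the 7 sequences of identical counts described below, each with an interval of 0.20 to 0.85 on the log2 scale. These 7 are also among the 60 and the 42. Thus 1 measurement may be counted 7 times in each of these counts.

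**Figure D3:**
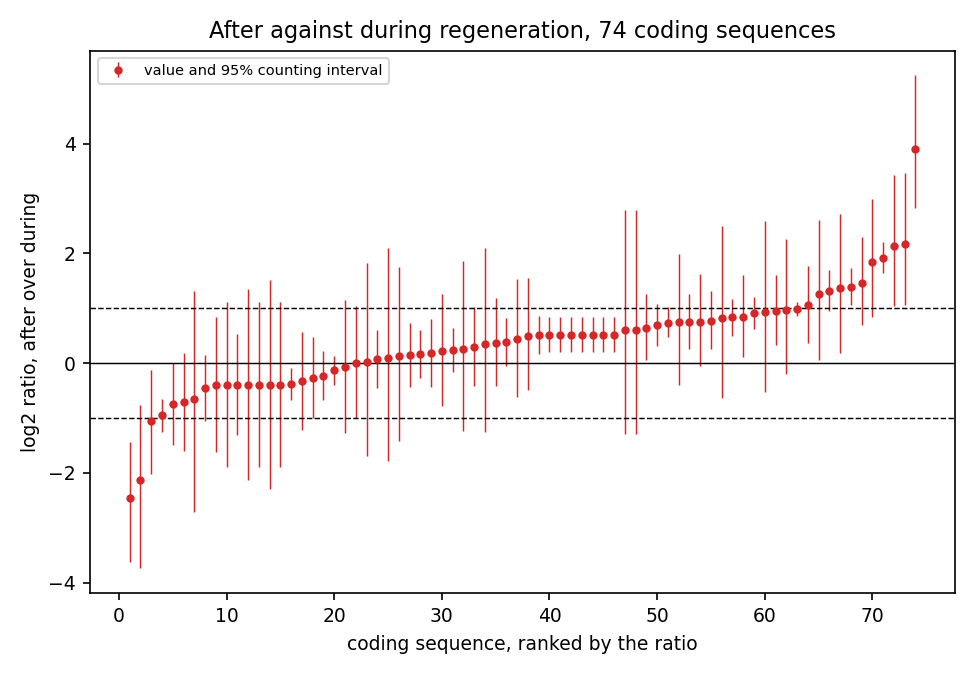
Log2 ratio of after over during regeneration for the 74 coding sequences in rank order, with 95% exact counting intervals as bars and dashed lines at 2-fold. At the right end CDS_43612_Unigene_68238 stands apart at 3.90, and at the left end CDS_59259_Unigene_92573 is at -2.46.

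CDS_43612_Unigene_68238 had the highest ratio of after to during, at 14.9-fold, or 3.90 on the log2 scale (2.82 to 5.24). CDS_2822_Unigene_4352, of 333 bases, was next at 4.48-fold, or 2.16 (1.07 to 3.46), with 162 reads in unwounded, 16 in regenerating and 94 in regenerated tissue. It ended at 49.5% of the before-wound level (33.8 to 71.7), at the edge of the set. At the other end, CDS_59259_Unigene_92573 was 5.51-fold lower after regeneration than during it, at -2.46 (-3.62 to -1.44). CDS_24583_Unigene_38119, of 396 bases, was 4.37-fold lower, at -2.13 (-3.73 to -0.76), with 98, 40 and 12 reads before, during and after. The set thus holds sequences whose level in regenerated tissue lay well above that in regenerating tissue and a few with the opposite order.

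The ratio of after to during was also described by abundance within the set. Taking identical sequences once, the 35 with at least 200 reads before the wound had a median log2 ratio of 0.69, and 28 of them were higher after regeneration. The 33 with fewer reads had a median of 0.09, and 19 were higher. The more abundant ones were lower during regeneration, at a median of 18.5% of the before-wound level against 30.1% for the less abundant, while after regeneration the medians were 32.2% and 30.4%. The before-wound reads are part of the rule, and these differences were not tested. Members also had to stay listed, and the smallest counts listed were 4 reads during and 4 after regeneration. Whether this bears on the contrast by abundance was not tested, and nothing is read from that contrast. By length the values were closer: the 29 of at least 400 bases stood at medians of 22.0% during and 30.5% after regeneration, and the 39 shorter ones at 23.1% and 32.0%.

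Per length, the 74 began above the typical coding sequence and ended below it. Their median FPKM was 827 in unwounded, 105 in regenerating and 239 in regenerated tissue. In the other 795 it was 489, 347 and 525. Among the 100 highest by FPKM of the 869, 14 of the 74 were found before the wound, 2 during and 5 after regeneration. With the 869 cut into 4 classes by unwounded FPKM, from low to high, the set took 2 of 218, 17 of 217, 27 of 217 and 28 of 217. The unwounded level is part of the rule, so this is a description.

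**Figure D4:**
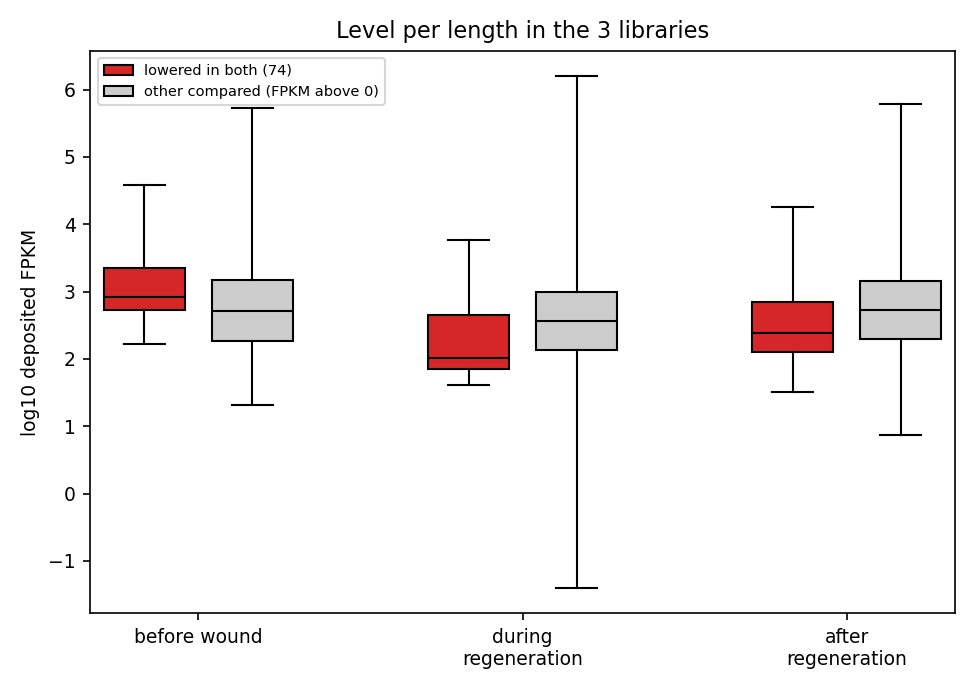
Deposited FPKM on a log10 scale for the 74 coding sequences (red) and the other compared ones with an FPKM above 0 (grey) in each library. Boxes span the middle 50% of sequences with the median as a line, and whiskers reach the lowest and highest value. The red median lies above the grey one before the wound and below it in both later libraries.

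The reads of the 74 were also set against the sum over all listed coding sequences. Together the 74 held 5.76% of it in unwounded tissue (5.69 to 5.84), 0.82% in regenerating tissue (0.80 to 0.85) and 1.81% in regenerated tissue (1.77 to 1.84). The intervals take every counted pair as separate, although sequences of identical counts may repeat pairs. With identical sequences taken once among the 74, but the totals left unchanged, the shares were 4.61%, 0.68% and 1.52%. As fragments assigned by FPKM the 74 held 5.05%, 0.72% and 1.67% of what the listed sequences held. Their summed scaled reads were 21.9% of the before-wound sum during regeneration and 33.4% after it. Scaled reads use size factors and the shares use library totals, so their falls differ.

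A block of 7 coding sequences, singled out after the values were seen, had the same length of 528 bases and the same counts in every library: 1484 reads in unwounded, 246 in regenerating and 462 in regenerated tissue. It stood at 18.5% of the before-wound level during regeneration and 26.5% after it. If each read was counted once per copy, these 7 are 1 measurement. They hold 23.3% of the reads of the 74 in unwounded, 19.8% in regenerating and 18.6% in regenerated tissue. The FPKM of each copy kept 9.95% to 10.7% of its pairs. Summed over the 7 this came to 556, 85.6 and 170 fragments in the 3 libraries, which is 74.9%, 69.6% and 73.4% of the pairs of 1 copy. The set therefore holds 68 different count profiles rather than 74.

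For most of the 74, FPKM kept nearly all read pairs. The FPKM of 51 of the 74 (68.9%) kept at least 90% of the read pairs in all 3 libraries, against 66.7% of the 869, and for 14 it kept under 50% in at least 1 library. When FPKM values, centred in the same way, replaced read counts, both log2 ratios moved by less than 0.1 for 59 of the 74 and either of them by at least 0.5 for 4, and 70 were still at 50% or less in both later libraries.

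Lengths of the 74 spanned 300 to 1473 bases (median 393), against 288 to 2865 (median 381) in the 869, and 17.6% against 14.2% had at least 600 bases. In sets of identical counts were 9.46% of the 74, 21.9% of the 137 lowered during regeneration only and 10.1% of the 869. Another member within 2 Unigene numbers was found for 7 of the 74, 5 of them in the block of 7. Of the 869, 14.8% had such a neighbour among the 869. The 869 offer more possible neighbours than the 74 do, so these values cannot be compared. None of these shares was tested.

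The rule leaves out sequences that went unlisted in a later library. With at least 20 reads in a listed library, 59 were listed before and during but not after regeneration, and 18 of them were at 50% or less during it. Another 381 were listed before and after but not during regeneration, and 116 of them were at 50% or less afterwards. Listed only before the wound were 532, of which 371 had at least 20 reads and 28 had at least 200. The smallest counts listed were 6, 4 and 4 reads before, during and after, and the labels do not give the rule of listing, so these sequences were not read as having 0 reads.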

How the data were processed

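Paired-end mRNA libraries were made with a stranded TruSeq kit from TRIzol-extracted total RNA, per the labels' protocols. Each deposited table gives read counts, lengths and FPKM values per listed coding sequence, per the file headers. The submitters' processing notes name FastQC, Trimmomatic and RSEM with no version. Neither assembler nor aligner is given in the sources used here. All read counts are even, so pairs were taken as reads divided by 2.

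Size factors (median of ratios over 887 sequences) were 0.983 before the wound, 0.879 during and 1.15 after regeneration. TMM factors came from edgeR 4.0.16 in R 4.3.3, other values from Python 3.11.15 with scipy 1.17.1 and statsmodels 0.14.6. Ratios carry exact conditional binomial intervals and shares of reads Clopper-Pearson ones. The share of pairs that FPKM keeps was taken from a line of pairs over FPKM on length, fitted at the 0.2 quantile over sequences of at least 400 bases and 50 pairs. Other scalings, filters, limits and the deposited FPKM were tried as alternatives. The scripts were tested on simulated data.

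The members, the lists and the tests were chosen with earlier results of these data known. Sequences named in the text are the extreme 2 by before-wound reads, by each ratio and by the mean log2 ratio, identical ones being taken once.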

Additional observations from a re-analysis of the deposited data

How the results depend on the processing

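No library could be left out, since each stage has 1. No paired analysis was possible because the labels give no pairing and a pair of single libraries leaves nothing to fit. The 74 members became 65 with TMM factors and 109 with library totals, which shift the median of all sequences during over before to -0.64 on the log2 scale; 74 of the 74 were kept with library totals. Deposited FPKM as given, with a median of -0.70, gave 130. A stricter limit of 25% of the before-wound level gave 15, and a looser one of 0.667 times that level gave 165, and upper interval bounds under 50% in both libraries gave 37. Reading unlisted sequences as 0 reads gave 579, which adds sequences listed before the wound and missing later. Members at 25% or less in both libraries numbered 15, but 28 with library totals and 30 with FPKM as given. Members at least 2-fold higher after than during numbered 11, but 43 with library totals, 53 with FPKM as given and 20 with centred FPKM. Members at least 2-fold lower numbered 3, but 5 with FPKM as given and 0 among those whose FPKM keeps at least 90% of pairs. The median log2 ratio of after over during ran from 0.36 to 0.75 over the scalings, filters and pseudocount; it was not computed for the other limits or for unlisted sequences read as 0. With library totals and FPKM as given, the median of all compared sequences was itself 0.60 and 0.66. TMM, no filter, a filter of 100 reads and 1 sequence per identical set kept each count within 1.5 times. Counts of 8 to 20 reads limit the least abundant members.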
